A study of Mus musculus with 60 samples.

Results

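Gene expression in the regenerating mouse liver was compared between 24 h (PHX-24h) and day 3 (PHX-D3) after partial hepatectomy (PHX), the surgical removal of most of the liver. The tissue was whole liver of wild-type C57BL/6 mice (C57BL/6J in the methods) aged 8 to 10 weeks, and every library of both groups came from an operated animal. PHX-24h and PHX-D3 had 3 libraries each, and livers of unoperated mice (Normal liver) and of mice at PHX-6h, PHX-D7 and PHX-D14, also 3 libraries each, are given only for the level of a gene at other times. Poly(A) RNA was sequenced and the values are FPKM, fragments scaled by transcript length and by the depth of the library. The genes described are those with an FPKM of at least 1 in 3 or more of the 6 libraries, which held for 10332 of the 17475 genes listed, and 9123 of them reached 1 FPKM in all 6 libraries. At the edge of this rule, 368 genes reached 1 FPKM in exactly 3 libraries and 365 genes in exactly 2. Of the genes described, 99 passed through PHX-D3 alone and 31 through PHX-24h alone.

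The liver restores its mass after partial hepatectomy mainly by division of the remaining hepatocytes. Hepatocytes leave quiescence within hours, copy their DNA, and then enter mitosis, while they must continue to supply plasma proteins, bile acids, glucose and detoxification to the body. The acute-phase response, in which hepatocytes secrete defence proteins under the control of IL6 and STAT3, accompanies the first days. The comparison asks which of these programmes had moved between an early and a later time of the same process.

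The reads behind each library, recovered from the steps of the FPKM values, were 52.1, 55.4 and 55.1 M at PHX-24h and 74.9, 57.6 and 52.7 M at PHX-D3, so depth did not separate the groups. No pair of libraries agreed within counting noise. The labels do not say that each library was a separate animal, and p-values then measure only the spread between these libraries. Albumin (Alb), the main protein that hepatocytes secrete, stood at 21675, 18988 and 24408 FPKM at PHX-24h and at 34331, 21866 and 53347 FPKM at PHX-D3, so every library held abundant hepatocyte RNA. In whole tissue, fewer cells of a type and less RNA per cell cannot be told apart.

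The second PHX-D3 library, PHX-D3 replicate 2, stood apart from its replicates. Of the genes described, 1142 (11.1%) lay at least 2-fold from both other PHX-D3 libraries, 523 above and 619 below. The next highest share was in PHX-24h replicate 1, with 233 genes (2.26%), 148 above and 85 below its replicates, and the other 16 liver libraries had between 3 and 166 genes. Across genes, which are not independent replicates, the Pearson correlation of log2(FPKM + 1) was 0.983 between PHX-D3 replicates 1 and 3. For PHX-D3 replicate 2 it was 0.893 and 0.871 with these replicates, against 0.878, 0.909 and 0.914 with the PHX-24h libraries. The calls over all genes are therefore given with and without PHX-D3 replicate 2, as are the log2 differences of many genes and lists. For some genes only the log2 difference or fold without it is given.

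**Figure D1:**
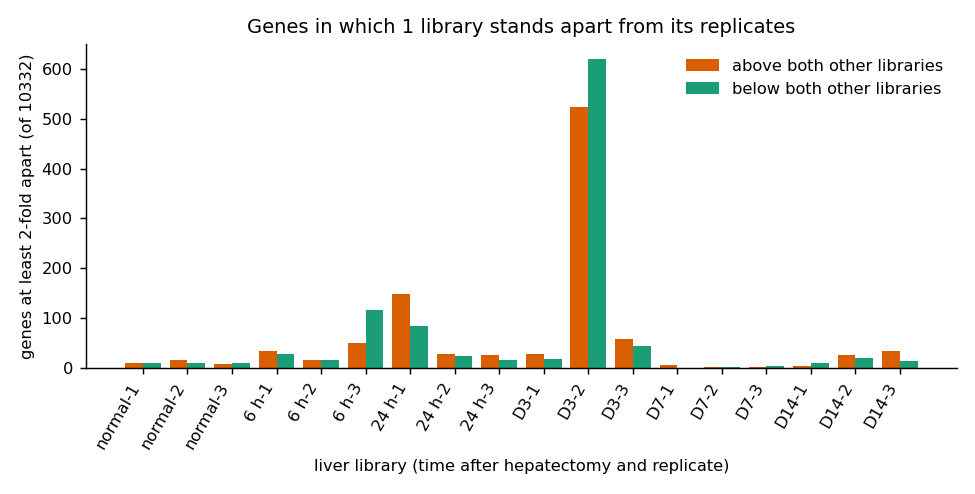
The bars give, for each of the 18 liver libraries, the number of genes at least 2-fold above or at least 2-fold below both replicates of its group, out of the 10332 genes described. PHX-D3 replicate 2 has 1142 such genes, PHX-24h replicate 1 has 233, and no other library has more than 166.

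With all 6 libraries, no gene passed the test. A call required an adjusted p under 0.05 by limma's moderated test on log2(FPKM + 1), with Benjamini-Hochberg adjustment over the 10332 genes, and a change of at least 2-fold. The calls were therefore 0 higher (0%) and 0 lower (0%) at PHX-D3. The smallest adjusted p was 0.0538, 2416 genes had an unadjusted p under 0.05, and voom on the recovered reads also called 0 genes in each direction. The 6 libraries still separated for many genes. All PHX-D3 values lay above all PHX-24h values for 1501 genes (14.5%) and below them for 1692 genes (16.4%).

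Without PHX-D3 replicate 2, the same test called 265 genes higher (2.56%) and 185 genes lower (1.79%) at PHX-D3, 450 in all (4.36%). This fit holds only 2 PHX-D3 libraries, and it was chosen because of how the remaining one looked. Its counts also rested on single libraries, since they went to 547 and 342 without PHX-24h replicate 1, to 0 and 0 without PHX-24h replicate 2, to 0 and 1 without PHX-24h replicate 3, to 79 and 68 without PHX-D3 replicate 1, and to 4 and 1 without PHX-D3 replicate 3. In the remaining text a gene is called, or rose or fell, by this fit unless all 6 libraries are named, and log2 differences and folds are PHX-D3 against PHX-24h on the log2(FPKM + 1) scale, which understates the change of low genes. Of the 265 genes called higher, 263 had the same sign with all 6 libraries, 163 were at least 2-fold higher there, and 148 (55.8%) had no overlap between the 3 PHX-D3 and the 3 PHX-24h values. Of the 185 genes called lower, the matching numbers were 184, 124 and 152 (82.2%). PHX-D3 replicate 2 itself lay nearer to the PHX-24h mean for 163 of the 265 genes called higher and for 53 of the 185 called lower, against 4747 of all 10332 genes. A fit of all 18 liver libraries, PHX-D3 replicate 2 included, in which the groups share 1 estimate of the spread, called 218 genes higher (2.11%) and 183 lower (1.77%). It had 149 of the 265 higher and 121 of the 185 lower genes in common with the fit without the library.

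**Figure D2:**
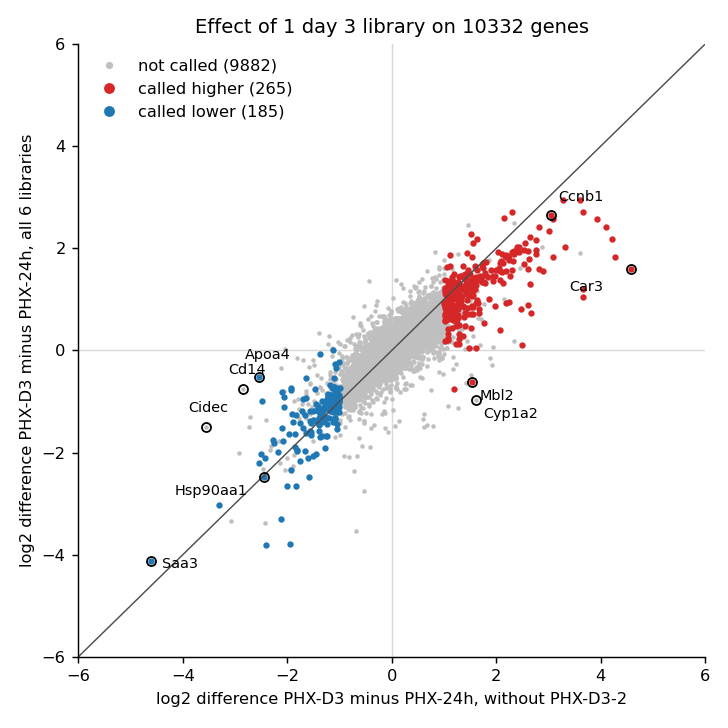
Each point is a gene, with the log2 difference PHX-D3 minus PHX-24h from 5 libraries, without PHX-D3 replicate 2, on the horizontal axis and from all 6 libraries on the vertical axis, both on log2(FPKM + 1), with genes called higher in red and lower in blue. Most called genes keep their sign, while Car3 drops from 4.57 with 5 libraries to 1.59 with 6.

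Mitotic genes were higher at PHX-D3 than at PHX-24h. These genes build the spindle, drive entry into mitosis and mark proteins for destruction at its end. The list of them held 58 genes, all in the table, and for 52 of the 58 every PHX-D3 value lay above every PHX-24h value, PHX-D3 replicate 2 included. Among all 17475 genes listed, 12.8% did so. Of the 58, 38 passed the filter on low values, but 21 of these passed through PHX-D3 alone and so had to be higher there. With no filter, the fit without PHX-D3 replicate 2 called 32 of the 58 higher, against 100 of 16623 genes (0.602%).

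Cyclin B1 (Ccnb1), which activates the kinase that starts mitosis, had FPKM values of 0.224, 0 and 0.094 at PHX-24h and of 6.31, 2.95 and 10.3 at PHX-D3. The groups did not overlap, and PHX-D3 replicate 2 was the lowest of its group. Ccnb1 passed the filter through PHX-D3 alone, so its test is given from the fit with no filter, where its log2 difference was 3.04 ± 0.24 (SE) with an adjusted p of 0.0428, and 2.64 ± 0.39 with an adjusted p of 0.0642 with all 6 libraries. Cyclin B2 (Ccnb2) went from 0.287, 0.117 and 0.153 FPKM to 7.75, 2.43 and 10.7 FPKM. Cdc20, an activator of the anaphase-promoting complex, went from 1.07, 0.091 and 0.305 FPKM to 12.1, 3.45 and 22.1 FPKM. Ube2c, the ubiquitin-conjugating enzyme of the same complex, went from 2.39, 0.446 and 0.799 FPKM to 16.5, 9.03 and 21.7 FPKM. In each of these genes all 3 PHX-D3 libraries were above all PHX-24h libraries, and the folds were 8.54, 12.1 and 9.64. The log2 differences with no filter were 3.09 ± 0.18, 3.60 ± 0.40 and 3.27 ± 0.42. With all 6 libraries they were smaller, at 2.58 ± 0.46, 2.94 ± 0.63 and 2.94 ± 0.44. Ccnb2 also passed the filter through PHX-D3 alone, and all 3 were called with no filter as well, with adjusted p-values of 0.0428, 0.0434 and 0.0448.

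The mitotic kinase Cdk1 stood at 2.15, 0.713 and 0.729 FPKM at PHX-24h and at 7.57, 3.44 and 10.4 FPKM at PHX-D3, a fold of 4.7. The proliferation marker Mki67 stood at 0.694, 0.0967 and 0.292 FPKM and then at 4.62, 2.12 and 8.4 FPKM, a fold of 5.43. DNA topoisomerase Top2a, which untangles chromosomes, stood at 1.78, 0.174 and 0.476 FPKM and then at 6.04, 2.77 and 8.89 FPKM, a fold of 4.94. PHX-24h replicate 1 was the highest PHX-24h library and PHX-D3 replicate 2 the lowest PHX-D3 library for all 3 genes. The log2 differences with no filter were 2.23, 2.44 and 2.30, and 1.85, 2.03 and 1.92 with all 6 libraries. With no filter, Mki67, which passed through PHX-D3 alone, was called with an adjusted p of 0.0448, while Cdk1 and Top2a missed the test with 0.0516 and 0.0648. At PHX-D7 the mean was 3.73 ± 0.662 FPKM for Cdk1, 1.53 ± 0.311 FPKM for Mki67 and 3.41 ± 0.6 FPKM for Top2a (SD, n = 3).

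Genes of DNA replication separated the times less clearly than the mitotic genes. The replication genes copy the genome or supply its building blocks. Of the 44 described, 2 were called higher (4.55%), Dbf4 and Tk1, against 2.56% of all genes tested. All PHX-D3 values lay above PHX-24h for 1 of the 44, against 14.5% of all genes tested. A positive log2 difference was seen in 39 of the 44, and in 38 with all 6 libraries. Over all 10332 genes, 5307 and 5497 were positive. The median log2 difference of the list was 0.51, and 0.36 with all 6 libraries. Over all genes the median was 0.01 without PHX-D3 replicate 2 and 0.03 with it. Dbf4, the activating subunit of the kinase that fires replication origins, went from 1.93, 1.47 and 1.72 FPKM to 4.77, 4.91 and 5.39 FPKM. The helicase subunit Mcm2 stood at 9.5, 1.66 and 3.41 FPKM at PHX-24h and at 4.02, 4.27 and 6.8 FPKM at PHX-D3, and the sliding clamp Pcna stood at 55, 27.7 and 31.9 FPKM and at 28.4, 35.7 and 52.1 FPKM. For both, PHX-24h replicate 1 was the highest of the 6 libraries, and the groups overlapped.

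The replication genes thus differed between the PHX-24h libraries themselves. Over all 50 listed genes with no filter, their median log2 level against Normal liver was 0.74, -0.16 and 0.06 in the 3 PHX-24h libraries and 0.26, 0.30 and 0.83 in the 3 PHX-D3 libraries. For all 58 mitotic genes, also with no filter, the same medians were 0.06, -0.30 and -0.15 at PHX-24h and 1.19, 0.56 and 1.68 at PHX-D3. By these medians, the replication genes of PHX-24h replicate 1 stood above those of PHX-D3 replicates 1 and 2, whereas its mitotic genes stood below those of every PHX-D3 library. Among 15 genes of the G1 phase, 1 was called higher (6.67%), against 2.56% of all genes tested. It was Cdkn2c, an inhibitor of the cyclin D kinases, with 4.56, 1.43 and 1.95 FPKM at PHX-24h and 14.3, 4.18 and 18.3 FPKM at PHX-D3. Cyclin D1 (Ccnd1), the G1 cyclin of the regenerating liver, was at 17.1, 4.72 and 16.8 FPKM and at 13.1, 23.6 and 20.9 FPKM and had an adjusted p of 0.531.

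**Figure D3:**
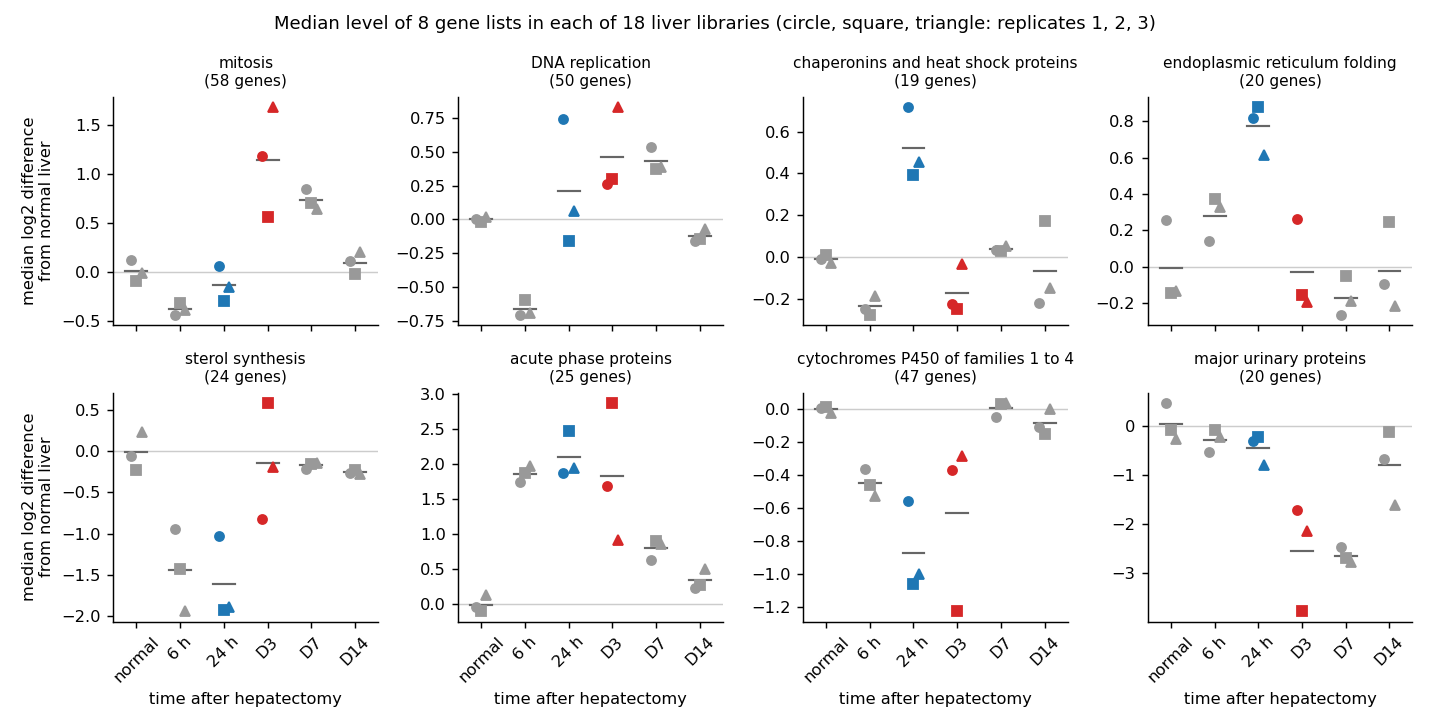
Each point is the median over all genes of a list in the table, with no filter on low values, in 1 library, of log2(FPKM + 1) minus the Normal liver mean, for 8 lists and all 6 groups (PHX-24h blue, PHX-D3 red, others grey, with circle, square and triangle for replicates 1, 2 and 3 and a line at the mean of the 3 libraries). The medians of the 58 mitotic genes run from -0.30 to 0.06 at PHX-24h and from 0.56 to 1.68 at PHX-D3, while those of the DNA replication genes overlap.

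Of 15 transcription factors tied to proliferation, 2 were called higher (13.3%), against 2.56% of all genes tested. Both passed the filter through PHX-D3 alone, and of the 13 that reached 1 FPKM at both times 0 were called. Foxm1, an activator of mitotic genes, had FPKM values of 0.242, 0.0165 and 0.0748 at PHX-24h and of 2.16, 1.03 and 3.57 at PHX-D3. In the fit with no filter its log2 difference was 1.78 ± 0.19 with an adjusted p of 0.0434, and 1.48 ± 0.30 with an adjusted p of 0.0889 with all 6 libraries. Mxd3, a partner of Max that is linked to proliferation, had FPKM values of 0.192, 0.222 and 0.14 and then of 2.07, 1.5 and 3.32, with a log2 difference of 1.62 ± 0.17 and an adjusted p of 0.0428 with no filter. With all 6 libraries the log2 difference of Mxd3 was 1.44 ± 0.21 with an adjusted p of 0.0642. Neither gene overlapped between the times. Barx2 and Elf3, other factors that the study followed, did not reach the filter. The mean at Normal liver was 0.161 ± 0.106 FPKM for Foxm1 and 0.275 ± 0.0739 FPKM for Mxd3, and at PHX-D7 it was 1.14 ± 0.0908 and 1.57 ± 0.371 FPKM.

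The promoters of these mitotic genes are shown because the genes moved together. The letters TTTGAA, on either strand, are the core of the cell cycle homology element, and CCAAT, on either strand, is the CCAAT box. In windows of 250 bases before to 50 bases after the start, taken from RefSeq for the GRCm38.p6 build, TTTGAA was found in 23 of 32 matched mitotic genes (71.9%), in 6 of 35 matched replication genes (17.1%), and in 14.3% of the 8065 genes tested that had a window. CCAAT was found in 25 of the 32 mitotic windows and in 43.1% of those of all genes tested. Matched genes are those that passed the filter on low values and had a window. Of the 38 mitotic genes that passed, 21 did so through PHX-D3 alone. The share over all 58 listed mitotic genes was not taken. In the 3 stretches that follow, written along the gene's own strand, capitals mark these letters. They run from 120 bases before the start of Ccnb2 (minus strand, chr9:70421555-70421674), from 120 before that of Cdc20 (minus strand, chr4:118437344-118437463) and from 120 before that of Ube2c (plus strand, chr2:164769809-164769908).
Ccnb2: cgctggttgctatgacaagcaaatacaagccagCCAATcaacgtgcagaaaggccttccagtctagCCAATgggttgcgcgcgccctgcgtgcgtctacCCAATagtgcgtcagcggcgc
Cdc20: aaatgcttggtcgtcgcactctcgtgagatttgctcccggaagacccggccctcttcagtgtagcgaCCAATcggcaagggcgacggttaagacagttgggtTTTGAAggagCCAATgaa
Ube2c: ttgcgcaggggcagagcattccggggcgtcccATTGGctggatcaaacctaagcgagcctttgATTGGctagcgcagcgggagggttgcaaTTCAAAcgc
The Ccnb2 stretch holds 3 CCAAT boxes, and the Cdc20 and Ube2c stretches each hold 2 of them and 1 TTTGAA. The window of Ccnb2 also held TTTGAA, outside the stretch shown. The last 9 bases of the Cdc20 stretch and up to 11 bases of the Ube2c stretch lie in an annotated exon of the same gene. A match of letters is a description and not a site at which a factor was measured.

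Chaperones were lower at PHX-D3 than at PHX-24h. These proteins fold other proteins in the cytosol and mitochondria and are induced by heat and other protein stress. All 18 genes of the list were lower at PHX-D3 with all 6 libraries, 14 of the 18 without overlap, against 16.4% of all genes tested. Called lower were 4 of the 18, Hsp90aa1, Hspb1, Hsph1 and Hspe1, against 1.79% of all genes tested. The median log2 difference of the list was -0.61, and -0.60 with PHX-D3 replicate 2, so that library moved with its group here.

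Hsp90aa1, the inducible cytosolic HSP90, stood at 701, 457 and 427 FPKM at PHX-24h and at 102, 86 and 87 FPKM at PHX-D3. The 3 PHX-D3 values lay close together and near the Normal liver mean of 77.4 ± 4.66 FPKM, and the PHX-6h mean was 113 ± 18.6 FPKM. The log2 difference was -2.44 ± 0.24 with an adjusted p of 0.014, and -2.48 ± 0.23 with an adjusted p of 0.0538 with all 6 libraries. The small chaperone Hspb1 stood at 234, 44.3 and 53 FPKM and then at 13.2, 14 and 3.99 FPKM, with PHX-24h replicate 1 far above the rest. The HSP70 cofactor Hsph1 stood at 75, 41.8 and 31.3 FPKM and then at 13.9, 4.27 and 9.34 FPKM. Hspe1, the mitochondrial HSP10, went from 263, 229 and 219 FPKM to 85.5, 77.9 and 92.1 FPKM, while its partner Hspd1, the mitochondrial HSP60, went from 323, 260 and 264 FPKM to 207, 184 and 221 FPKM and was not called. Both separated the times without overlap.

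A stretch of 30 bases upstream of Hspe1 (plus strand, chr1:55088053-55088082, GRCm38.p6), from 95 to 66 bases before its start, is shown because Hspe1 fell while its partner was not called, and the pair of genes lies head to head. The stretch lies within an exon of Hspd1. It holds the heat shock element, searched as GAANNTTCNNGAA on either strand, in 2 overlapping copies, with the fixed letters in capitals.
Hspe1: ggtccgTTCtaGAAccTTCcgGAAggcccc
Of 14 chaperone genes with a promoter window, 3 held this element, against 0.62% of the genes tested with a window, and 2 of the 3 chaperone genes called that had a window held it. The 3 that held it were Hspd1, Hspe1 and Hsph1. Whether the matches of Hspd1 and Hspe1 are the same site was not tested.

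Chaperones of the endoplasmic reticulum were lower as well. This compartment folds secreted proteins, and its chaperones rise when unfolded protein accumulates in it. Of 20 genes, 7 were called lower (Hsp90b1, Dnajb11, Dnajc3, Sdf2l1, Pdia6, Creld2 and Manf), against 1.79% of all genes tested. In 12 of the 20, all PHX-D3 values were below PHX-24h, against 16.4% of all genes tested. The median log2 difference of the 20 genes was -0.77, and -0.78 with all 6 libraries. Hsp90b1, the HSP90 of this compartment, stood at 722, 867 and 538 FPKM and then at 334, 237 and 270 FPKM. The disulfide isomerase Pdia6 stood at 413, 421 and 353 FPKM and then at 185, 111 and 151 FPKM. Hspa5, the central chaperone of the compartment, was at 572, 536 and 504 FPKM and then at 373, 367 and 214 FPKM, without overlap, and missed the test with an adjusted p of 0.0557.

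Creld2 and Sdf2l1, which rise with unfolded protein in this compartment, had the lowest log2 differences of the 7. Creld2 stood at 137, 111 and 78.9 FPKM at PHX-24h and at 50.5, 21.7 and 17.1 FPKM at PHX-D3, and its log2 difference was -1.81 ± 0.44. Sdf2l1 stood at 163, 125 and 67.6 FPKM and then at 46, 22.2 and 20.6 FPKM. Its log2 difference was -1.82 ± 0.44, and -1.97 with all 6 libraries. PHX-24h replicate 3 was the lowest of its group for both, yet above every PHX-D3 library. The Normal liver means were 27.1 ± 5.86 FPKM for Creld2 and 55.2 ± 9.77 FPKM for Sdf2l1.

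The endoplasmic reticulum stress element, searched as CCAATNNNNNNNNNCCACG on either strand, was found in 8 of 18 matched genes of this list and in 0.186% of the genes tested with a window. Of the 6 genes called lower that had a window, 4 held it. Every match contains a CCAAT box by construction. The stretches of Pdia6 (plus strand, chr12:17266449-17266528), Creld2 (plus strand, chr15:88819506-88819585) and Hsp90b1 (minus strand, chr10:86705525-86705664), in GRCm38.p6, are shown because these genes fell together, with the fixed letters of the element in capitals.
Pdia6: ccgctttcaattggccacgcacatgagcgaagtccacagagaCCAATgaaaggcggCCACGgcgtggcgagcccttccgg
Creld2: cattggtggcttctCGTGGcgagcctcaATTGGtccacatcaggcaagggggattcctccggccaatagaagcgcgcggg
Hsp90b1: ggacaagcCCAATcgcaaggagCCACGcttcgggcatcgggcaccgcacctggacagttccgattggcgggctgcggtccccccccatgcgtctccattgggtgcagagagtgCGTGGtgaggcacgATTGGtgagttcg
The Hsp90b1 stretch holds the element 2 times, once on each strand, and those of Pdia6 and Creld2 hold it 1 time each, on opposite strands.

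The proteasome, which degrades tagged proteins, moved in the same direction by a smaller amount. Of 31 subunit genes, 29 were lower with all 6 libraries and 31 without PHX-D3 replicate 2. In 20 of the 31, all PHX-D3 values were below PHX-24h, against 16.4% of all genes tested. The median log2 difference of the list was -0.65, and -0.53 with all 6 libraries, and 2 genes passed the 2-fold limit. Psmc6, an ATPase of the cap, went from 83.9, 112 and 96.1 FPKM to 44.3, 52.7 and 41 FPKM, and Psmb3, a subunit of the core, from 174, 219 and 181 FPKM to 94.6, 115 and 92.2 FPKM. Of 42 genes of ribosome biogenesis, 10 were lower without overlap and 1 (2.38%) was called lower, against 16.4% and 1.79% of all genes tested, so the list stayed near the background. The gene called was Nop58, a core protein of the particles that modify ribosomal RNA, with 27.1, 32.9 and 34.2 FPKM and then 13.4, 20.6 and 15.7 FPKM.

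Genes of cholesterol synthesis and its control were higher at PHX-D3. All 24 genes of this list were higher at PHX-D3 with all 6 libraries, 16 of the 24 without overlap, against 14.5% of all genes tested. Called higher were 10 of the 24, against 2.56% of all genes tested, among them Insig1, Hmgcs1, Mvk, Pmvk, Fdft1, Sc5d and Dhcr7. Across the list the median log2 difference was 1.17, and 1.47 with PHX-D3 replicate 2, which had the highest values. Against Normal liver the median log2 level of the list was -1.02, -1.92 and -1.89 at PHX-24h and -0.82, 0.58 and -0.19 at PHX-D3. In PHX-D3 replicates 1 and 3 the median was therefore still below Normal liver.

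Insig1, the sensor that holds the sterol-responsive factors in the endoplasmic reticulum, stood at 24.4, 13.2 and 17 FPKM at PHX-24h and at 74.5, 218 and 111 FPKM at PHX-D3. Hmgcs1, a synthase early in the pathway, stood at 23.5, 21.3 and 22.5 FPKM and then at 46.9, 321 and 92.4 FPKM. In both genes PHX-D3 replicate 2 was the highest library and PHX-D3 replicate 1 the lowest of its group, above every PHX-24h library. The log2 difference of Insig1 was 2.30 ± 0.28 with an adjusted p of 0.0148, and that of Hmgcs1 was 1.51 ± 0.27 with an adjusted p of 0.023.

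The letters TCACNCCAC of the sterol regulatory element, on either strand, were found in 1 of 16 matched genes of the list, against 1.51% of the genes tested with a window, while all 16 windows held a CCAAT box. The match lies upstream of Hmgcs1 (plus strand, chr13:119690201-119690260, GRCm38.p6), whose stretch is shown with the fixed letters in capitals.
Hmgcs1: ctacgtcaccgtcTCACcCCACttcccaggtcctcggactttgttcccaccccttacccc
Other spellings of the element were not searched, and no match says only that these letters are not in the window.

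Of 21 genes of fatty acid synthesis, 4 were called higher (Srebf1, Fads1, Fads2 and Acss2) and 9 were higher without overlap. Over all genes tested these shares were 2.56% and 14.5%. Srebf1, the factor that drives this pathway, rose from 13.9, 4.16 and 6.11 FPKM to 37.7, 20.5 and 66.4 FPKM, a fold of 6.25. The desaturase Fads1 rose from 76.6, 39.8 and 57.3 FPKM to 125, 132 and 150 FPKM. For Srebf1 PHX-D3 replicate 2 was the lowest of its group, unlike in the sterol genes, and the groups did not overlap. Fatty acid synthase (Fasn) had 15.9, 6.81 and 7.85 FPKM and then 19.3, 23.7 and 35.9 FPKM, with an adjusted p of 0.0647.

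Among 17 genes of lipid droplets and lipid handling, 1 was called higher, Lpl (5.88%), and 2 lower, Fabp4 and G0s2 (11.8%). Over all genes tested, 2.56% were called higher and 1.79% lower. Fabp4, a fatty acid carrier of fat cells, macrophages and endothelium, stood at 199, 205 and 89.3 FPKM at PHX-24h and at 27.9, 51.4 and 23.5 FPKM at PHX-D3, where PHX-D3 replicate 2 was the highest of its group. Its Normal liver mean was 23.8 ± 3.05 FPKM. G0s2, which inhibits the main lipase of droplets, stood at 218, 202 and 306 FPKM and then at 103, 140 and 77 FPKM. Neither overlapped between the times. Cidec, a protein of large droplets, was split, with 5.05, 49.3 and 100 FPKM at PHX-24h and 2.12, 191 and 1.29 FPKM at PHX-D3, so that PHX-D3 replicate 2 was above all PHX-24h libraries and its replicates below them. Apoa4, an apolipoprotein secreted with lipid, had 1185, 1447 and 2256 FPKM and then 242, 18018 and 301 FPKM. It was called lower, with a log2 difference of -2.54 ± 0.29, but with all 6 libraries the difference was -0.52 ± 1.59.

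Of 24 acute-phase genes, 4 were called lower (Saa3, Crp, Apcs and Serpina3m), against 1.79% of all genes tested. The median log2 difference of the list was -0.93, and -0.72 with all 6 libraries. Against Normal liver the median log2 level was 1.88, 2.34 and 2.05 at PHX-24h and 1.74, 2.88 and 0.92 at PHX-D3, so the list stayed above Normal liver in every library and was highest in PHX-D3 replicate 2. Saa3, a serum amyloid A of macrophages and inflamed tissue, had 210, 1571 and 180 FPKM and then 32, 43.6 and 6.79 FPKM. Apcs, the serum amyloid P component, had 1338, 2022 and 1296 FPKM and then 744, 1104 and 309 FPKM. Both separated the times. Saa1, a major acute-phase product of hepatocytes, had 11182, 15344 and 11149 FPKM and then 7673, 6161 and 1018 FPKM and was not called, with an adjusted p of 0.113, and its Normal liver mean was 116 ± 71.4 FPKM.

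No gene of the IL6, JAK and STAT3 list was called, of 18 described. Socs3, the feedback inhibitor of this pathway, stood at 21.9, 44.4 and 48.7 FPKM at PHX-24h and at 20.2, 28.6 and 5.29 FPKM at PHX-D3, with overlap and an adjusted p of 0.0883. Of 20 immediate early genes, Gadd45g and Maff were called lower (10%), against 1.79% of all genes tested. Gadd45g, a stress-induced regulator of kinase signalling, had 56, 123 and 87.8 FPKM and then 28.8, 42.2 and 26.8 FPKM, whereas Maff had 18.4 FPKM in PHX-D3 replicate 2, above every PHX-24h library. Of 17 growth factors and receptors, 1 was called lower (5.88%), against the same 1.79%. It was Hgf, the main hepatocyte mitogen from non-parenchymal cells, with 6.1, 8.56 and 10.7 FPKM and then 2.73, 13 and 4.01 FPKM. PHX-D3 replicate 2 was the highest library for Hgf, and the log2 difference was -1.10 ± 0.25 without it and -0.53 ± 0.49 with it.

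In several of the largest rises without PHX-D3 replicate 2, this library lay far below its replicates. Car3, a carbonic anhydrase abundant in hepatocytes, stood at 51.2, 15.1 and 10.4 FPKM at PHX-24h and at 335, 0.0226 and 757 FPKM at PHX-D3. Serpina6, the plasma carrier of glucocorticoids, stood at 21, 3.91 and 5.1 FPKM and then at 145, 0.0216 and 194 FPKM. The carboxylesterase Ces1d stood at 64.7, 13.3 and 17.9 FPKM and then at 297, 0.989 and 367 FPKM. PHX-D3 replicates 1 and 3 were above, and PHX-D3 replicate 2 below, every PHX-24h library in all 3 genes. Their log2 differences were 4.57 ± 0.65, 4.28 ± 0.60 and 3.67 ± 0.59, and with all 6 libraries 1.59 ± 2.39, 1.82 ± 1.98 and 1.21 ± 1.99.

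Other genes among the largest rises were Upp2, which breaks down uridine, the methyltransferase Inmt, and Gstm3, a glutathione transferase. Upp2 had 14.4, 1.08 and 2.07 FPKM and then 39.5, 0.279 and 179 FPKM. Inmt had 70, 28.5 and 25.5 FPKM and then 347, 1.1 and 668 FPKM. Gstm3 had 27.1, 9.71 and 13 FPKM and then 123, 28 and 332 FPKM, and was the only 1 of these 3 whose groups did not overlap. Their Normal liver means were 167 ± 73.3 FPKM for Upp2, 1031 ± 320 FPKM for Inmt and 118 ± 11.6 FPKM for Gstm3, so at PHX-24h all 3 were below the unoperated liver.

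Of 41 cytochrome P450 genes, whose products oxidise drugs, steroids and fatty acids, 7 were called higher (Cyp2a4, Cyp2a5, Cyp2c44, Cyp2c55, Cyp2c70, Cyp3a11 and Cyp3a59). This was 17.1%, against 2.56% of all genes tested. For the list the median log2 difference was 0.58 without PHX-D3 replicate 2 and 0.04 with it, and the fit of 18 libraries called 3 higher and 4 lower. Against Normal liver the median log2 level was -0.59, -1.36 and -1.09 at PHX-24h and -0.46, -2.03 and -0.39 at PHX-D3. Cyp2a5, which oxidises coumarin, had 70.3, 17.1 and 13 FPKM and then 324, 22.4 and 490 FPKM. Cyp2a4, its close copy, had 0.235, 0.116 and 4.24 FPKM and then 14.6, 0 and 68.5 FPKM, and reads of near-identical genes may have been split between them. Cyp1a2, a pericentral enzyme, had 168, 52.2 and 45.4 FPKM and then 230, 0.0642 and 226 FPKM and was not called.

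Of 39 genes of conjugation, 8 were called higher (Gsta2, Gsta3, Gsta4, Gstm1, Gstm3, Gstm6, Gstp1 and Ugt1a9) and 1 lower, Nnmt. With PHX-D3 replicate 2 this balance did not hold, since the fit of 18 libraries called 5 higher and 3 lower, and 4 genes were higher and 6 lower without overlap. The median log2 difference changed sign with PHX-D3 replicate 2, from 0.22 without it to -0.12 with it. Over all genes tested, 2.56% were called higher and 1.79% lower without that library. Without overlap, 14.5% of all genes tested were higher and 16.4% lower. Of 27 genes of bile acid synthesis and transport, 3 were called higher, Cyp8b1, Akr1d1 and Slc27a5. Cyp8b1, which sets the share of cholic acid, had 9.24, 24.7 and 4.34 FPKM and then 60.6, 0.258 and 81 FPKM. Cyp7a1, the rate-limiting enzyme of bile acid synthesis, had 20.2, 0.0462 and 0.0116 FPKM and then 10.9, 0 and 96.8 FPKM, with an adjusted p of 0.149. PHX-24h replicate 1 thus had a Cyp7a1 level above PHX-D3 replicate 1 and far above its own replicates.

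Calls in other pathways of hepatocytes are set against 2.56% higher and 1.79% lower over all genes tested. Of 22 genes of sugar metabolism, 1 was called higher (4.55%) and 1 lower (4.55%), the latter Pfkfb3, an activator of glycolysis. Of 12 genes of the urea cycle and amino acid nitrogen, Ass1 and Gls2 were called higher (16.7%) and Slc25a15 and Oat lower (16.7%), both above those shares. Ass1, the argininosuccinate synthase, had 769, 517 and 687 FPKM and then 1195, 858 and 2048 FPKM without overlap, and Oat, ornithine aminotransferase, had 894, 604 and 519 FPKM and then 353, 137 and 280 FPKM without overlap. Of 29 genes of fatty acid oxidation, Acaa1b was called higher and Decr1 lower (3.45% each). Of 22 hepatocyte transcription factors, 0 were called, and of 16 clock genes 1 was, the repressor Nr1d1, with 7.88, 10.1 and 11.8 FPKM and then 2.32, 4.85 and 4.85 FPKM.

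Among 40 plasma protein genes, C4b and Mbl2 were called higher and Mbl1 lower, against 2.56% and 1.79% of all genes tested. A positive log2 difference was seen in 33 of the 40, and in 25 with all 6 libraries. The median of the list was 0.45, and 0.28 with all 6 libraries. Without overlap 14 were higher and 5 lower, against 14.5% and 16.4% of all genes tested. Mbl2, a mannose-binding lectin of complement, had 192, 109 and 148 FPKM and then 377, 3.79 and 475 FPKM, and its log2 difference was 1.53 ± 0.25 without PHX-D3 replicate 2 and -0.62 ± 1.69 with it. The major urinary proteins, pheromone carriers that male mice secrete in bulk, were lower at PHX-D3. Of 20 genes, 9 were called lower and 15 were lower without overlap, against 1.79% and 16.4% of all genes tested. The median log2 difference of the 20 was -1.84, and -2.23 with all 6 libraries. These genes are near-identical copies, so values of single members are uncertain. Mup20, a more divergent member, had 3100, 2778 and 2202 FPKM and then 959, 334 and 655 FPKM, and a Normal liver mean of 3840 ± 628 FPKM. Mup19 had 330, 248 and 186 FPKM and then 39.7, 1.5 and 53.5 FPKM. PHX-D3 replicate 2 was the lowest library for both.

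**Figure D4:**
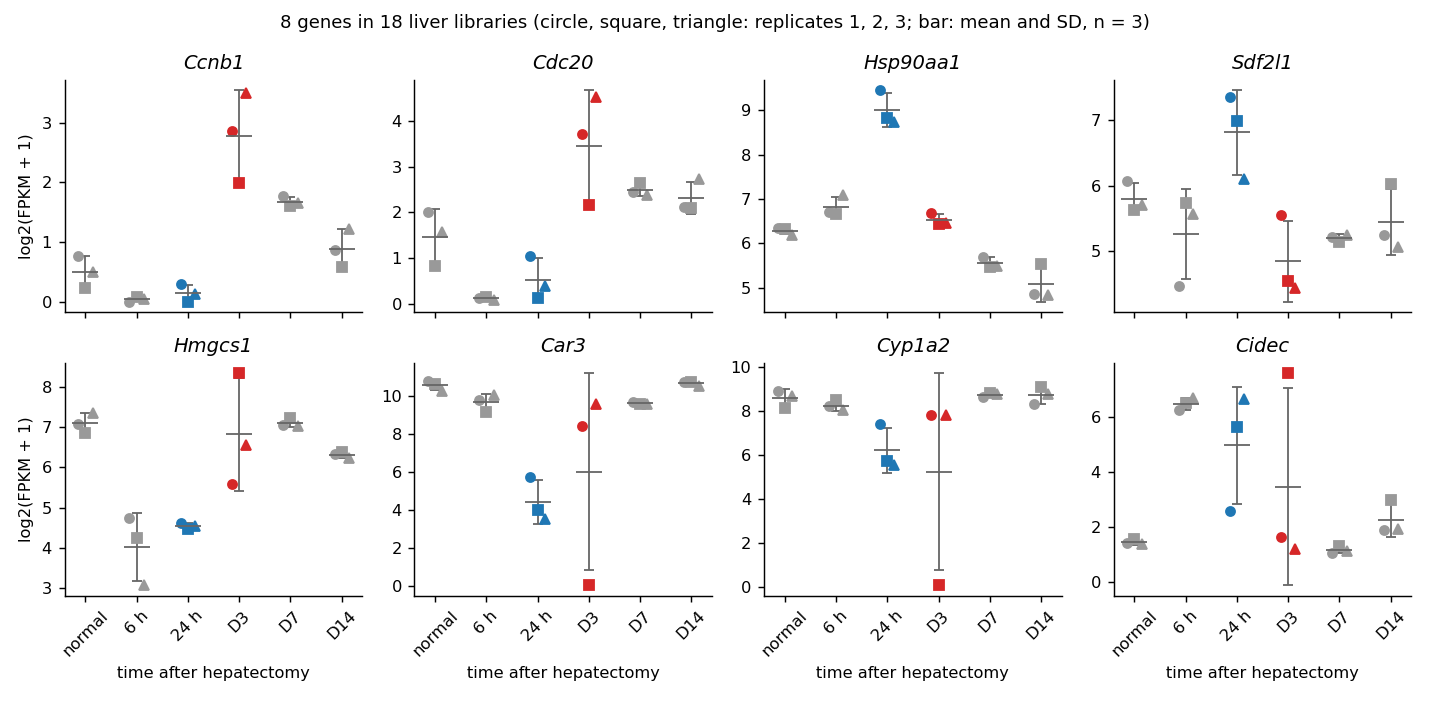
Each panel shows 1 gene, with log2(FPKM + 1) on the vertical axis and the time on the horizontal one, from Normal liver to PHX-D14; circle, square and triangle are replicates 1, 2 and 3, and lines give the mean and SD (n = 3). The PHX-D3 square, replicate 2, lies with its replicates for Hsp90aa1, at 86 FPKM, and far below them for Car3, at 0.0226 FPKM.

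The remaining largest falls were in genes of several kinds. Serpina12, a secreted serine protease inhibitor, had 7.27, 7.18 and 6.54 FPKM and then 1.15, 1.56 and 0.448 FPKM. Tifa, an adaptor of inflammatory signalling, had 64.5, 172 and 101 FPKM and then 34.7, 36.6 and 9.8 FPKM. 2010003K11Rik had 59.1, 88.1 and 177 FPKM and then 24.3, 49.7 and 16 FPKM. These 3 separated the times with all libraries, and their log2 differences were -2.18 ± 0.21, -2.42 ± 0.56 and -2.25 ± 0.43. With all 6 libraries the log2 difference was -2.11 for Tifa and -1.82 for 2010003K11Rik.

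The last genes of the largest falls overlapped between the times. Tubb2a, a beta tubulin, had 60.9, 101 and 121 FPKM and then 24.1, 374 and 9.67 FPKM, so that PHX-D3 replicate 2 was the highest library. Fam134b, a receptor for degradation of the endoplasmic reticulum, had 34.7, 123 and 109 FPKM and then 11, 47.8 and 21 FPKM. Syt12, a synaptotagmin, had 9.35, 28.9 and 37.9 FPKM and then 3.96, 9.93 and 2.29 FPKM. For the last 2 genes PHX-24h replicate 1 was the low library of its group. The remaining gene of the largest rises, Prtn3, a protease of granulocyte precursors, had 8.89, 4.31 and 4.31 FPKM and then 84.8, 3.54 and 48.1 FPKM, so PHX-D3 replicate 2 was again below every PHX-24h library.

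Calls in further lists are set against 2.56% higher and 1.79% lower over all genes tested. None of 17 p53 targets and none of 15 interferon response genes was called, although the fit of 18 libraries called 2 and 1 of them higher. Of 22 genes of the tubulin and actin cytoskeleton, 1 was called higher, Stmn1 (4.55%), and 2 lower, Tubb2a and S100a10 (9.09%). A negative log2 difference was seen in 19 of the 22 without PHX-D3 replicate 2 and in 12 with it. Stmn1, which destabilises microtubules and is high in dividing cells, rose from 14.3, 3.13 and 6.13 FPKM to 36.2, 10.7 and 57.2 FPKM, with overlap through PHX-24h replicate 1. S100a10, a partner of annexin A2, fell from 262, 524 and 590 FPKM to 120, 318 and 112 FPKM, with overlap through PHX-D3 replicate 2. Of 18 genes of metal handling, the iron exporter Slc40a1 rose from 17.5, 8.21 and 10.9 FPKM to 28.3, 25 and 38.4 FPKM without overlap. Of 23 genes of the extracellular matrix, 6 were higher and 0 lower without overlap, against 14.5% and 16.4% of all genes tested. With all 6 libraries 17 of the 23 had a positive log2 difference, and the fit of 18 libraries called 1 higher. Without PHX-D3 replicate 2, 1 gene of this list was called lower, Timp1, an inhibitor of matrix proteases, with 2.27, 2.3 and 6.69 FPKM and then 0.17, 12.6 and 0.683 FPKM, so that PHX-D3 replicate 2 was the highest library. Of 18 zonation genes, which mark the periportal or pericentral part of the lobule, Hal and Gls2 were called higher (11.1%) and Oat and Lect2 lower (11.1%). Both shares were above those over all genes tested. Lect2, a secreted protein of hepatocytes, had 232, 207 and 336 FPKM and then 94.8, 44.6 and 115 FPKM without overlap.

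Genes of other liver cells were checked in the same libraries, where 2.56% of all genes tested were called higher and 1.79% lower. Of 13 Kupffer cell genes, 1 was called higher (7.69%), Csf1r, the receptor for macrophage growth factor, with 3.8, 3.14 and 3.83 FPKM and then 10.9, 16.1 and 6.88 FPKM. A positive log2 difference was seen in 12 of the 13, and in 13 with all 6 libraries. All PHX-D3 values lay above PHX-24h for 5 of the 13, against 14.5% of all genes tested. The summed FPKM of the list was 244 to 253 at PHX-24h and 379, 682 and 254 at PHX-D3. Of 22 endothelial genes, Kdr and Ehd3 were called higher (9.09%), and Kdr, the VEGF receptor, had 4.6, 1.99 and 3.22 FPKM and then 8.16, 2.33 and 8.56 FPKM. Of 16 stellate cell genes, Tagln and Hgf were called lower (12.5%), and Tagln, an actin-binding protein of contractile cells, had 20.7, 14 and 21.4 FPKM and then 6.25, 9.66 and 6.95 FPKM. Csf1r and Tagln separated the times, and Kdr did not. Of 5 bile duct genes, 1 was called higher, Tff3, a secreted protein of mucosal epithelia, with 2.39, 3.82 and 2.1 FPKM and then 7.52, 4.74 and 13 FPKM. The list did not follow Tff3, since 3 of the 5 had a negative log2 difference, and 2 with all 6 libraries. The median of the 5 was -0.60, and 0.16 with all 6 libraries.

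Of 10 genes of recruited macrophages, 1 was called lower (10%), against 1.79% of all genes tested. It was the monocyte attractant Ccl2, with 3.38, 5.48 and 9.97 FPKM and then 0.431, 10.8 and 0.824 FPKM. The summed FPKM of this list was 96 to 169 at PHX-24h and 102, 458 and 84.5 at PHX-D3, highest in PHX-D3 replicate 2. None of the neutrophil, MHC class II, red blood cell or hepatocyte marker genes was called, of 3, 5, 5 and 10 described. The lymphocyte markers did not reach the filter, and the highest FPKM of any of the 18 in the table was 0.987 in these 6 libraries. The part of these cells in the changes of other genes was not tested.

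The genes in which PHX-D3 replicate 2 stood highest above its replicates were Cd14, Chil3, Cidec, Apoa4, Fgf21 and Igfbp1. Cd14, the coreceptor for bacterial lipopolysaccharide, had 2.48, 225 and 1.31 FPKM at PHX-D3. It had 2.07, 53.2 and 50.9 FPKM at PHX-24h, where PHX-24h replicate 1 was the low library. Chil3, a chitinase-like protein of activated macrophages, had 0.382, 99.5 and 0.37 FPKM at PHX-D3 and 1.66, 4.96 and 10.3 FPKM at PHX-24h. Fgf21, a hormone of fasting and stress, had 1.2, 69.5 and 0.264 FPKM at PHX-D3 and 0.0334, 3.19 and 1.71 FPKM at PHX-24h. Igfbp1, an insulin-repressed binding protein, had 99.5, 2272 and 30.2 FPKM at PHX-D3 and 42, 1006 and 330 FPKM at PHX-24h. In each of these genes PHX-D3 replicate 2 was above all PHX-24h libraries as well and not between the 2 times.

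The genes in which it stood furthest below its replicates were Car3, Serpina6, Ces1d, Inmt, Cyp1a2 and Akr1c6, all genes with high levels in Normal liver. Akr1c6, a steroid dehydrogenase of the liver, had 621, 0.873 and 808 FPKM at PHX-D3 and 1456, 920 and 1099 FPKM at PHX-24h. The amino acid stress genes had a median log2 level against Normal liver of -0.11, 2.16 and -0.13 at PHX-D3, and of -0.02, 0.23 and 0.10 at PHX-24h. Among the 15 of these described, Atf5 and Nupr1 were called lower (13.3%), against 1.79% of all genes tested. Nupr1, a stress-induced nuclear protein, had 1.87, 3.28 and 3.13 FPKM at PHX-24h and 0.746, 20.2 and 0.182 FPKM at PHX-D3. The summed FPKM of 10 hepatocyte markers was 60342, 56432 and 80584 at PHX-D3 and 44621 to 52103 at PHX-24h, so by this sum PHX-D3 replicate 2 lay between its replicates and PHX-24h. The median log2 level of these markers against Normal liver was -0.01, -0.33 and 0.15 at PHX-D3 and -0.30, -0.45 and -0.31 at PHX-24h. By this median PHX-D3 replicate 2 lay among the PHX-24h libraries. By the list medians against Normal liver, the mitotic, chaperone and sterol genes of this library lay on the same side of the PHX-24h libraries as those of its replicates, while its cytochrome P450 and conjugation genes lay below every PHX-24h library, with medians of -2.03 and -1.70.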

How the data were processed

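Deposited FPKM values, 1 column per library, were used as the authors gave them; the submitters' processing notes name TopHat 1.4.1, Cufflinks 1.3.0 and mm10, with no role stated. Genes are named by symbol only, and 25 entries that read as calendar dates were kept unchanged. Whole reads were recovered from the steps of the FPKM values for 16713 genes, which gave 52.1 to 79.3 M reads over the 18 liver libraries. Log2(FPKM + 1) was tested with limma 3.58.1 in R 4.3.3 (trend, Benjamini-Hochberg adjustment over all genes tested, checked on simulated data), and voom on the recovered reads was an alternative. Standard errors are limma's, and SD is over 3 libraries. Gene lists, members and tests were chosen with earlier results of these data known. Named genes were the 12 largest called rises and falls, the 6 genes in which PHX-D3 replicate 2 lay furthest above and below its replicates, and members of the lists. Because all 6 libraries gave no call, this rule was read from the fit without PHX-D3 replicate 2, a choice made after seeing the data. Lists are described by counts and medians, with no set test. Promoters came from RefSeq (GRCm38.p6), matched by symbol, and positions are 1-based. Some genes of the lists are counted but not reported here by name.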

Additional observations from a re-analysis of the deposited data

How the results depend on the processing

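With all 6 libraries the calls were 0 higher and 0 lower, and leaving out 1 library in turn gave 0 to 265 higher and 0 to 185 lower, above 0 only without PHX-D3 replicate 2. A filter of 5 FPKM gave 30 higher and 76 lower, median centring 35 and 52, the fit of 18 libraries 218 and 183, and array weights, which set PHX-D3 replicate 2 to 0.205, gave 288 and 237. The other alternatives (pseudocount 0.1, no filter, quantile normalization, robust prior, voom, other fold limits and the replicate block) gave 0 and 0. Replicate numbers did not pair the libraries (correlations of deviations 0.38, 0.39 and -0.30, and not every library correlated best with its own number).

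Without PHX-D3 replicate 2 the calls were 265 and 185. All alternatives of this fit were chosen after seeing the data. Leaving out a further library gave 0 to 547 higher and 0 to 342 lower: the highest counts came without PHX-24h replicate 1, and the counts fell to 0 and 0 without PHX-24h replicate 2, to 0 and 1 without PHX-24h replicate 3, to 79 and 68 without PHX-D3 replicate 1 and to 4 and 1 without PHX-D3 replicate 3. A replicate block gave 0 and 0, no filter 100 and 81, a filter of 5 FPKM 171 and 173, array weights 432 and 270, and no fold limit 475 and 705. A limit of 1.5-fold gave 470 and 644 and one of 4-fold 65 and 19. Of the 131 named genes, Mbl2 was called in 1 direction against the sign with all 6 libraries, where its log2 difference was -0.62, and leaving out 1 library gave -1.78 to 1.53, the highest without PHX-D3 replicate 2. The list medians of 11 lists changed sign without that library. Depth was 52.1 to 74.9 M reads in the 6 libraries, and genes under 1 FPKM in 4 or more of them were left out.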
